A study of Bos taurus with 19 samples.

Results

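The genes described here are HMGCS1, FDPS, FDFT1, SQLE, LSS and DHCR7, which encode enzymes of the route from acetyl-CoA to cholesterol, and INSIG1, which encodes a membrane protein that holds this route in check. IDI1, the isomerase of the same route, belongs to the set of 8 genes, but no probe set carried that single symbol in the array annotation used here and it has no values. The 8 genes were chosen with earlier results of these data known. Their probe sets were taken by gene symbol, as every one whose annotation gave 1 of these 8 symbols and no other. This gave 12 probe sets for 7 genes, of 24127 probe sets on the array, of which 13317 carried a single symbol and together named 9156 genes.

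Cells make cholesterol from acetyl-CoA in the cytosol and the endoplasmic reticulum. The transcription factor SREBP2, encoded by SREBF2, switches on the genes of the whole route when sterols in the endoplasmic reticulum run low. When sterols are plentiful, the INSIG proteins hold SREBP and its escort SCAP in the endoplasmic reticulum, and INSIG1 is itself a target of SREBP. Theca interna is the steroid-producing layer outside the follicular basal lamina, where LH drives the synthesis of androgen from cholesterol, and its cells can obtain cholesterol from lipoproteins or make it themselves.

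RNA from bovine theca interna was measured on 19 single-colour Affymetrix arrays, 1 per follicle. The follicles came from non-pregnant Bos taurus heifers at an abattoir, with no hormone treatment given in the labels. There were 10 small healthy follicles of 3 to 5 mm, of which 5 had rounded and 5 had columnar basal granulosa cells, 4 large healthy follicles of over 9 mm and 5 small atretic follicles of 3 to 5 mm, which are those in regression. The ages of the heifers, and whether any 2 follicles came from the same heifer, are not given in the sources used here, so that the p-values measure the spread between these follicles only. Granulosa cells had been scraped off and the theca interna dissected by hand, a tissue that also holds endothelial, smooth muscle, immune and fibroblast cells.

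Signals are log2 values, so that a difference of 1 is a 2-fold change, and they were deposited with 1 decimal. Of the steroidogenic markers of the tissue in the small healthy follicles, INSL3 had log2 signals between 11.7 and 12.4 and CYP11A1 between 9.8 and 10.5, whereas LHCGR, the LH receptor, lay between 2.8 and 4.3, around the detection limit. The 8 markers of the adjoining granulosa layer were mixed. INHA lay between 9.3 and 10.6, FST between 8.1 and 9.6, HSD17B1 between 7.1 and 8.6, INHBA between 6.3 and 9.1 and AMH between 5.8 and 6.1. CYP19A1, between 1.8 and 3.9, and NR5A2, between 2.4 and 3.3, lay around the detection limit, and FSHR, between 1.6 and 2.7, below it. The 3 adipocyte markers with a probe set were below 3 on every array. The sample records name a different RNA kit for each of the large, small healthy and atretic follicles, and 0.25 µg of labelled RNA for the atretic against 2 to 5 µg for the other follicles, so that kit and follicle class cannot be told apart. Bacterial poly-A controls spiked into the RNA averaged 5.88 ± 0.28 (SD, n = 4) in log2 signal for the large, 4.57 ± 0.22 (SD, n = 10) for the small healthy and 4.78 ± 0.32 (SD, n = 5) for the atretic follicles.

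Among the early enzymes, HMGCS1 condenses acetyl-CoA with acetoacetyl-CoA to HMG-CoA. Its log2 signals were 8.3, 8.4, 7.1, 9.3 and 7.2 in the rounded follicles and 9.6, 7.7, 8.4, 9.3 and 8.3 in the columnar ones. In the large follicles they were 7.4, 7.4, 10.5 and 6.8, and in the atretic follicles 8.4, 6.9, 8.8, 6.8 and 6.3. Within each group some follicles had high and others low HMGCS1, and the 4 groups overlapped. FDPS, which makes farnesyl pyrophosphate, the branch point to sterols and to prenylated proteins, ranged from 6.7 to 8.9 in the 10 small healthy follicles with a median of 7.5. It lay between 6.9 and 9.1 in the large follicles and between 6.5 and 8.4 in the atretic ones. FDFT1, squalene synthase, commits farnesyl pyrophosphate to sterols and had on its brightest probe set the narrowest range of the 7 genes, 5.3 to 6.4 in the small healthy, 5.4 to 6.7 in the large and 5.5 to 6.3 in the atretic follicles.

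SQLE, squalene epoxidase, carries out the first oxygen-dependent step of sterol synthesis. It had log2 signals of 7.0, 7.1, 5.7, 8.2 and 6.9 in the rounded, 8.3, 6.8, 7.0, 8.3 and 7.6 in the columnar, 6.8, 6.3, 8.9 and 5.1 in the large and 6.8, 5.1, 7.8, 5.2 and 4.4 in the atretic follicles. The atretic follicles held the lowest value of all, yet atretic replicate 3 exceeded 7 of the 10 small healthy ones. LSS, which closes squalene epoxide into lanosterol, was dimmer, between 4.0 and 5.3 in the small healthy, between 4.3 and 5.7 in the large and between 3.9 and 5.2 in the atretic follicles. DHCR7, which reduces 7-dehydrocholesterol to cholesterol at the end of the route, had values of 6.4, 6.4, 5.0, 7.9 and 6.2 in the rounded, 7.5, 6.0, 6.4, 7.9 and 6.8 in the columnar, 6.1, 5.7, 8.1 and 5.4 in the large and 6.0, 5.0, 7.8, 5.4 and 4.5 in the atretic follicles. In each group, the follicles with the highest and the lowest DHCR7 were also highest and lowest for SQLE, with a tie for the highest among the columnar ones.

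INSIG1, the sterol-dependent brake, had log2 signals of 5.2, 6.5, 4.7, 6.6 and 5.6 in the rounded and 7.2, 5.6, 5.7, 6.3 and 6.6 in the columnar follicles. They were 5.3, 5.7, 8.4 and 4.8 in the large and 5.4, 4.3, 5.4, 4.8 and 4.1 in the atretic follicles. No atretic follicle was above 5.4. The rounded and large groups each had a follicle at or below 4.8, so that both overlapped with the atretic group. The columnar group did not, since its lowest follicle, at 5.6, lay above every atretic one. By group mean, the order of INSIG1 was columnar, 6.28 ± 0.66 (SD, n = 5), large, 6.05 ± 1.61 (SD, n = 4), rounded, 5.72 ± 0.82 (SD, n = 5), and atretic, 4.80 ± 0.60 (SD, n = 5). Of the 7 genes, HMGCS1, SQLE, DHCR7, FDPS and INSIG1 had their highest group mean in the columnar and their lowest in the atretic follicles, whereas LSS was highest in the large follicles and FDFT1 was lowest in the rounded ones. Neighbours in these orders differed by less than the SD of at least 1 of the 2 groups, except for INSIG1 in the rounded and atretic follicles, where the difference was 0.92.

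**Figure D1:**
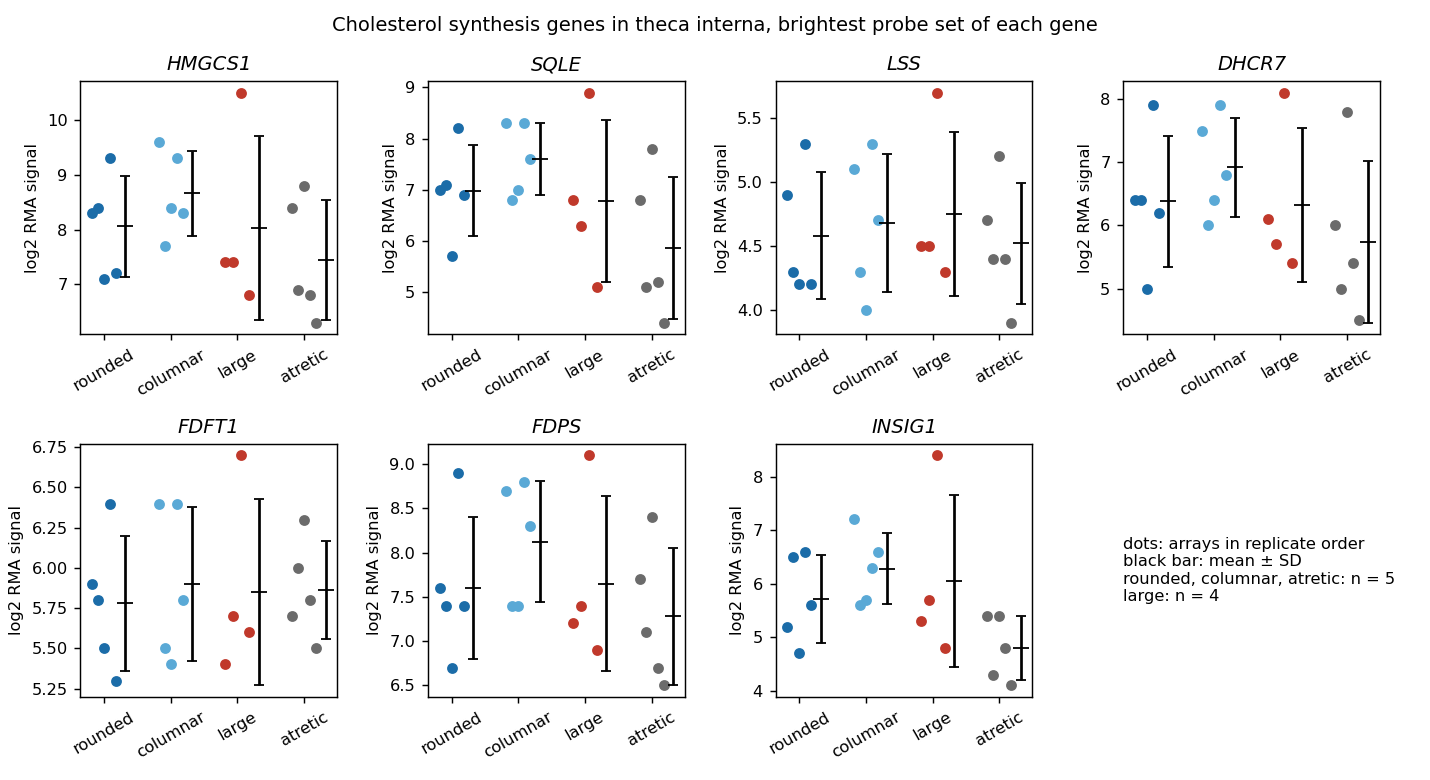
Log2 RMA signal (y axis, a scale of its own for each gene) of the brightest probe set of 7 genes in the rounded, columnar, large and atretic follicles (x axis); each dot is an array and the black bar is the mean ± SD. The dots of the 4 groups overlap for every gene, except that for INSIG1 every columnar dot is above every atretic one. Large replicate 3 is the highest dot of each panel.

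The values above are from the brightest probe set of each gene. HMGCS1 had a second probe set, with signals from 1.7 to 6.2, LSS a second from 2.7 to 4.3 and FDFT1 a second from 4.6 to 7.7, which was nearly as bright as the first and varied more. The dimmest probe set of LSS, from 2.3 to 2.8, and that of FDFT1, from 1.0 to 1.3, were below the detection limit of 3 on every array and were not tested, which left 10 of the 12 probe sets.

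The 7 genes varied far more between follicles of a group than between the groups. The 4 groups took up between 1.23% of the variance over the 19 arrays, for FDFT1, and 31.3%, for INSIG1, beside a median of 31.5% over the 15722 probe sets detected in any group. Among the 10 small healthy follicles the SD ran from 0.43 for FDFT1 to 0.91 for DHCR7. The median SD of the tested probe sets was 0.21, and the SDs of these genes exceeded those of 89.0% (FDFT1) to 99.2% (DHCR7) of them. From the lowest to the highest small healthy follicle, FDFT1 changed 2.14-fold, LSS 2.46-fold, FDPS 4.59-fold, INSIG1 and HMGCS1 5.66-fold, SQLE 6.06-fold and DHCR7 7.46-fold. The place of FDFT1 depended on the probe set, since its second one changed 3.73-fold with an SD of 0.70.

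The same follicles were high for all of these genes. Large replicate 3 had the highest value of the 19 arrays for each of the 7, with a mean over the genes of 8.20. Columnar replicate 1 and rounded replicate 4, with means of 7.54 and 7.51, were among the 5 highest for all 7 genes, and columnar replicate 4, with 7.47, and atretic replicate 3, with 7.10, for 6 of 7. At the other end, rounded replicate 3, with a mean of 5.56, and atretic replicate 5, with 5.03, were among the 5 lowest for all 7 genes. Atretic replicate 5 had the lowest value of all arrays for 6 genes, and the lowest FDFT1 was that of rounded replicate 5.

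**Figure D2:**
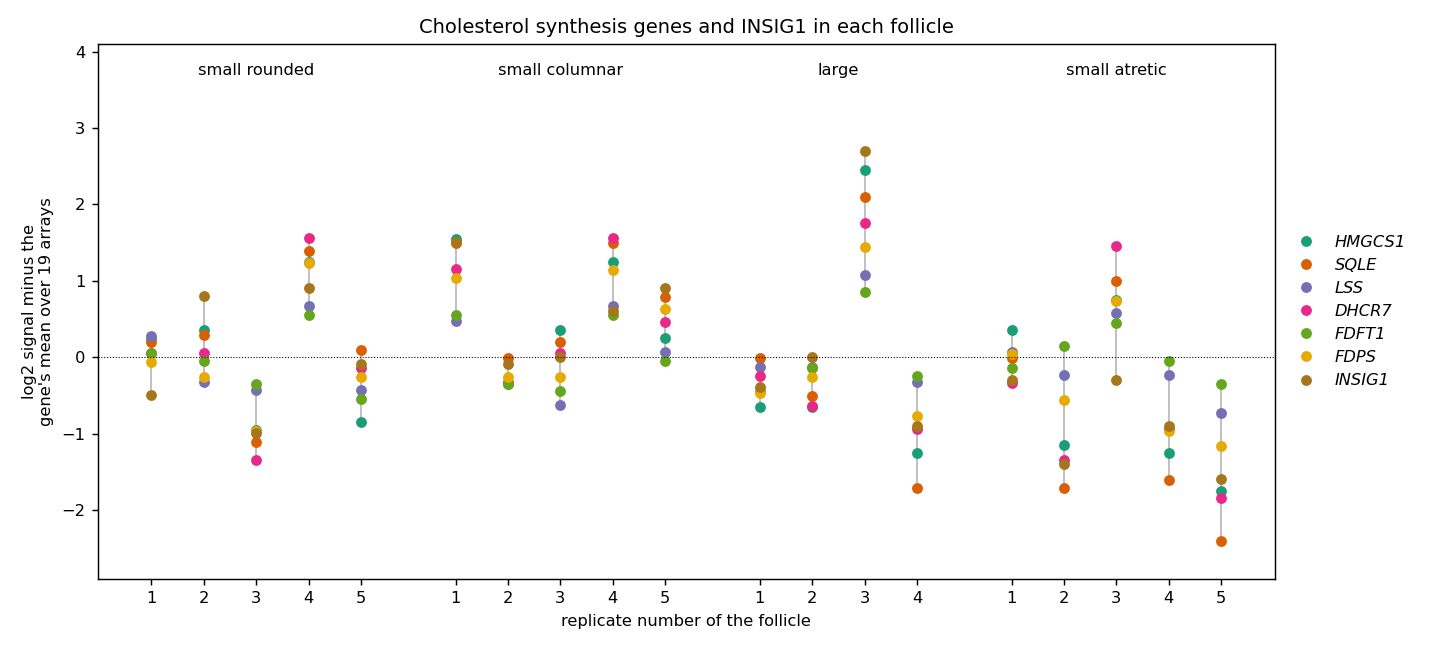
Log2 signal of each of 7 genes minus its mean over the 19 arrays (y axis) in every follicle, by group and replicate number (x axis); each coloured dot is a gene and the grey line joins the lowest and the highest gene of a follicle. In large replicate 3, rounded replicate 4 and columnar replicates 1 and 4 every dot is above 0. In rounded replicate 3, large replicate 4 and atretic replicates 4 and 5 every dot is below 0. The same holds for columnar replicate 2 and large replicate 1, where SQLE lies almost at 0.

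The comparison of large with small healthy follicles asked which transcripts changed with follicular growth. None of the cholesterol synthesis genes passed the test between these stages. In limma, with Benjamini-Hochberg adjustment, 557 of 15570 probe sets had an adjusted p under 0.05, which is 3.58%, and 0 of the 10 probe sets of these genes were among them. At an unadjusted p under 0.05, which 24.4% of all probe sets had, the count was also 0. In the large follicles HMGCS1 averaged 8.03 ± 1.67 (SD, n = 4) and SQLE 6.78 ± 1.59 (SD, n = 4), against 8.36 ± 0.86 and 7.29 ± 0.82 (SD, n = 10) in the small healthy follicles. The log2 differences of the 7 genes, large minus small healthy, ran from -0.52 for SQLE to 0.12 for LSS with a median of -0.21, beside a median of -0.005 over all tested probe sets. Their adjusted p-values over all 10 probe sets lay between 0.592 and 0.983.

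For 5 of the 7 genes the 95% interval of this difference reached beyond a 2-fold change. That of SQLE ran from -1.71 to 0.68 and that of INSIG1 from -1.12 to 1.22, and only those of LSS, -0.49 to 0.73, and FDFT1, -0.53 to 0.55, stayed within 2-fold. These values depended on large replicate 3. Without it the median of the 7 differences was -0.73, HMGCS1 was at -1.16, and INSIG1, LSS and FDFT1 went from 0.05, 0.12 and 0.01 to -0.73, -0.20 and -0.27. None of them passed the test then either.

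Rounded and columnar follicles differ in the shape of the basal granulosa cells, and the comparison asked whether the theca beside them differs too. In the fit of the 3 healthy groups 0 of 15570 probe sets, or 0%, had an adjusted p under 0.05 in limma, and 360 had an unadjusted p under 0.05. All 10 probe sets of the cholesterol synthesis genes had lower means in the rounded follicles, but 0 of 10 passed at either threshold. SQLE had a log2 difference, rounded minus columnar, of -0.62 (95% interval -1.91 to 0.67), HMGCS1 of -0.60 (95% interval -1.96 to 0.76) and INSIG1 of -0.56 (95% interval -1.83 to 0.71). FDFT1 and LSS had differences of -0.12 and -0.10, and the median of the 7 genes was -0.54, beside 0.02 over all tested probe sets. These genes share the high and low follicles described above, so that their signs are not independent of each other. For the 7 genes, two-sided p-values from an exact permutation of the 5 and 5 follicles (252 splits) lay between 0.278 and 0.825.

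Atretic follicles were compared with healthy ones of the same size, and here SQLE and INSIG1 were lower. SQLE had a mean of 5.86 ± 1.40 (SD, n = 5) in the atretic and 7.29 ± 0.82 (SD, n = 10) in the small healthy follicles, a log2 difference of -1.43 (SE 0.51, limma's adjusted p = 0.0425). INSIG1 fell by 1.20 on the log2 scale (SE 0.36, limma's adjusted p = 0.0199), from 6.0 ± 0.76 (SD, n = 10) to 4.80 ± 0.60 (SD, n = 5). The exact permutation test over 3003 splits, two-sided, gave p = 0.0286 for SQLE and p = 0.0130 for INSIG1. Of the 5 atretic follicles, 3 were below every small healthy one in SQLE and 2 in INSIG1, and the groups overlapped for both genes.

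These were 2 of 10 probe sets, beside 31.9% of all 15470 tested, of which 2608 were higher and 2331 lower in atretic follicles, so that the share of these genes that passed was below that of the array. HMGCS1 had a log2 difference, atretic minus small healthy, of -0.92 (95% interval -1.90 to 0.06, limma's adjusted p = 0.132), and DHCR7 one of -0.91 (95% interval -1.99 to 0.17, adjusted p = 0.174). FDPS was at -0.58 (95% interval -1.38 to 0.22), LSS at -0.11 and FDFT1 at 0.02, the last bounded by -0.40 and 0.44. For HMGCS1, the dimmer probe set gave a difference of -1.03 with an unadjusted p of 0.0300 in limma and an adjusted p of 0.0774. The median of the 7 genes was -0.91, beside 0.01 over all tested probe sets.

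The call of SQLE was lost in 15 of 28 alternative settings and that of INSIG1 in 4. With all 4 groups in a single fit the adjusted p was 0.0646 for SQLE and 0.0603 for INSIG1, and against the rounded follicles alone it was 0.263 and 0.161. Without atretic replicate 2 it was 0.106 and 0.0536, and without atretic replicate 5 it was 0.139 and 0.0662. Leaving out atretic replicate 3, the follicle with high values, had the opposite effect, and DHCR7 then passed with a log2 difference of -1.43 (limma's adjusted p = 0.0279).

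The atretic follicles also differed in the signals of cell type markers and cell cycle genes. Of the 7 immune markers with a probe set, such as CD68 and C1QA of macrophages and PTPRC, the common leukocyte antigen, 7 were higher in the atretic follicles, with a median log2 difference of 1.35. The mean of the 7 immune markers lay between 5.23 and 6.54 in the atretic and between 3.93 and 5.20 in the small healthy follicles. All 7 cell cycle genes fell, with a median of -2.38, and of the 10 steroidogenic genes, 9 of which had a lower mean in the atretic follicles, 1 passed, CYP11A1, which fell by 1.31 (SE 0.29, limma's adjusted p = 0.00529). NR5A1, the steroidogenic factor, had a log2 difference of -0.45 (adjusted p = 0.0509). STAR had 8.46 in the atretic and 8.31 in the small healthy follicles (adjusted p = 0.863), and CYP17A1 5.86 and 7.33 (adjusted p = 0.121). Of smooth muscle markers 3 of 6 rose (MYH11, DES and MYLK), of fibroblast markers 1 of 6 (PDGFRA) and of endothelial markers 0 of 5, with 1 at an unadjusted p under 0.05, and of granulosa markers 2 of 5 fell (INHBA and AMH). These counts stand beside 31.9% of all probe sets. Between large and small healthy follicles 3.58% of all probe sets passed in limma and 24.4% had an unadjusted p under 0.05. There the steroidogenic genes had 0 of 10 and the immune markers 0 of 7 passing in limma, with 1 and 4 at an unadjusted p under 0.05. The cell cycle genes had 0 of 7 and the endothelial markers 0 of 5 passing, with 6 and 4 at an unadjusted p under 0.05 and median log2 differences of -0.99 and 0.55. All 6 smooth muscle markers had an unadjusted p under 0.05 there, of which DES and MYLK passed and rose, as did COL1A1, COL1A2 and NR5A2, and AMH fell. In whole tissue, fewer steroidogenic cells and less RNA per cell cannot be told apart, and the part of these shifts in the values of SQLE and INSIG1 was not tested.

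**Figure D3:**
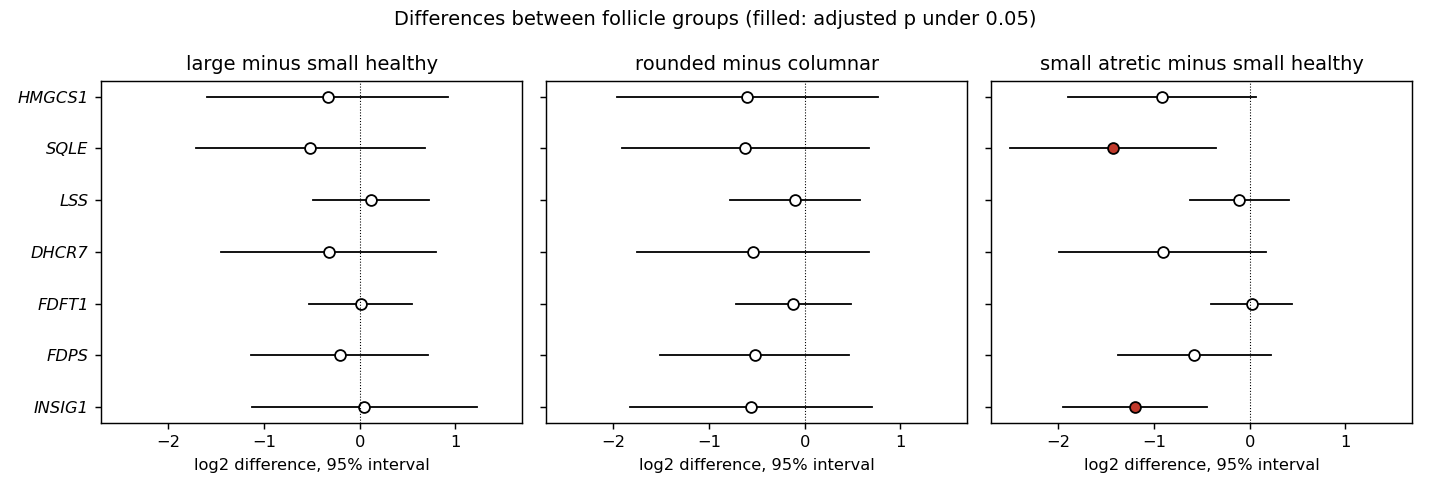
Log2 difference (x axis) with its 95% interval from limma for 7 genes (y axis) between large and small healthy, rounded and columnar, and atretic and small healthy follicles; filled dots have an adjusted p under 0.05. The filled dots are SQLE, at -1.43, and INSIG1, at -1.20, in the atretic follicles, and in the other comparisons every interval includes 0.

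The other genes of sterol metabolism were looked at in the same way. Of the 10 further enzymes of cholesterol synthesis that had a probe set, 0 passed in limma between large and small healthy follicles and 0 between rounded and columnar, also at an unadjusted p under 0.05. In atresia, where 31.9% of all probe sets passed in either direction, 1 of the 10 did. That was EBP, the sterol isomerase, which fell by 0.76 in log2 signal (SE 0.26, limma's adjusted p = 0.0386), from 6.38 to 5.62. NSDHL, a sterol dehydrogenase, came next with 6.46 in small healthy and 5.66 in atretic follicles (adjusted p = 0.0789), and 9 of the 10 enzymes had a lower mean in the atretic follicles, with a median difference of -0.35.

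Of the 7 measured genes of the SREBP machinery, SREBF2 fell in atretic follicles from 5.96 to 5.46 (SE 0.17, limma's adjusted p = 0.0380), whereas 2 rose, SCAP from 4.24 to 4.64 (SE 0.12, adjusted p = 0.0246) and INSIG2, the other sterol-dependent anchor, from 5.42 to 5.86 (SE 0.12, adjusted p = 0.0145). INSIG1 and INSIG2 thus had opposite signs in the same follicles. The share of all probe sets that passed in this comparison was 31.9%. SREBF1, whose main product drives fatty acid synthesis, had 7.34 in atretic and 7.60 in small healthy follicles and did not pass (adjusted p = 0.217). In the other comparisons 0 of the 7 passed in limma, also at an unadjusted p under 0.05.

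Of the 9 tested genes on a list of other SREBP targets, which also holds MVD of the enzymes above, 4 fell in atretic follicles, beside the 31.9% of all probe sets that passed in either direction. All 4 belong to fatty acid synthesis. They were SCD, the stearoyl-CoA desaturase, by 1.37 in log2 signal (limma's adjusted p = 0.0405), ELOVL6, a fatty acid elongase near the detection limit, by 0.72 (adjusted p = 0.0264), FADS2, a desaturase of polyunsaturated fatty acids, by 0.69 (adjusted p = 0.0246), and FASN, fatty acid synthase, by 0.41 (adjusted p = 0.0135).

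Of the 4 genes of sterol efflux and of the sterol-sensing LXR pathway, 3 rose in atretic follicles, where 31.9% of all probe sets passed in either direction. These were APOE, the apolipoprotein that macrophages and steroidogenic cells secrete, by 1.35 (limma's adjusted p = 0.00201), MYLIP, a ubiquitin ligase, by 0.86 (adjusted p = 0.00854), and NR1H2, a receptor of oxysterols, by 0.29 (adjusted p = 0.0283). The fourth, NR1H3, fell in large follicles by 0.38 (adjusted p = 0.0216). Of 7 genes of cholesterol uptake and storage, NPC2, which moves cholesterol out of lysosomes, rose by 0.74 (adjusted p = 0.00254) and LIPE, which frees cholesterol from its esters, fell by 0.77 (adjusted p = 0.00316) in atretic follicles.

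Over the 10 small healthy follicles, which are of 1 size and health class, the 7 genes varied together. SQLE and DHCR7 had a Pearson r of 0.99 and a Spearman rho of 0.96, with a permutation p of 2.00e-05 and an adjusted p of 0.00042 over the 21 pairs. SQLE and FDPS had an r of 0.97, DHCR7 and FDPS one of 0.97, and LSS and FDFT1 one of 0.95. Over the 21 pairs r lay between 0.56 and 0.99 with a median of 0.87, and rho between 0.54 and 0.96. In permutation tests of 100000 draws, two-sided, 20 of the 21 pairs had an adjusted p under 0.05 for r and 19 for rho.

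INSIG1 was the least alike. Its r was 0.87 with SQLE, 0.80 with FDPS, with HMGCS1 and with DHCR7, 0.68 with FDFT1 and 0.56 with LSS, and the pair with LSS did not pass (permutation test, adjusted p = 0.0977). Without the 2 follicles farthest from the median of the first gene of a pair, r lay between 0.46 and 0.99 with a median of 0.86. A pair of probe sets drawn from all pairs of the 15570 tested reached an r of 0.87 in 0.909% of cases and one of 0.56 in 11.9%.

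**Figure D4:**
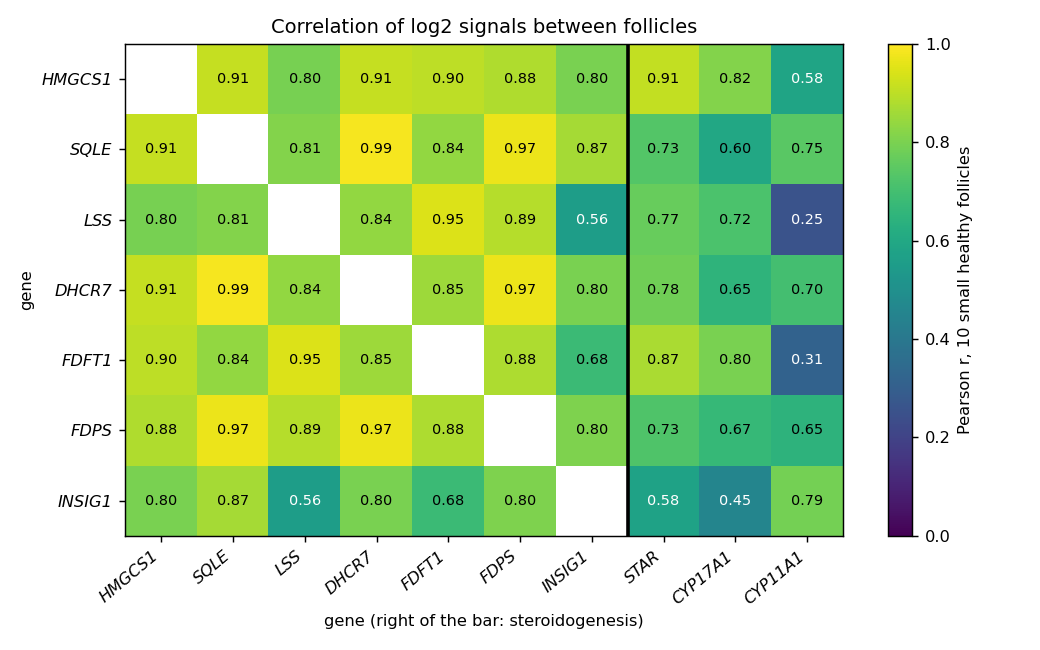
Pearson r of log2 signals over the 10 small healthy follicles (colour and printed value) between each of 7 genes (y axis) and the other 6 genes, STAR, CYP17A1 and CYP11A1 (x axis). Values between SQLE, DHCR7 and FDPS are 0.97 or higher, and the lowest value among the 7 genes is 0.56, for LSS and INSIG1.

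After the means of the rounded and of the columnar follicles were removed, the median r of the 21 pairs was 0.86 and the range 0.56 to 0.99. Within either shape there were 5 follicles, too few for a value. In the large and atretic follicles, which had no part in the correlations above, the median r of the 21 pairs over 9 arrays was 0.93 once the group means were removed, with a range of 0.75 to 0.98. Without large replicate 3 it was 0.90 over 8 arrays with a range of 0.44 to 0.97, the lowest being that of FDFT1 and INSIG1.

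The cholesterol synthesis genes also varied with STAR, which delivers cholesterol to the inner mitochondrial membrane for steroid synthesis. In the small healthy follicles STAR had log2 signals of 8.9, 8.8, 7.2, 9.9 and 6.2 in the rounded and 9.3, 6.6, 8.4, 9.8 and 8.0 in the columnar follicles. The highest STAR values were those of rounded replicate 4 and columnar replicates 4 and 1, the follicles that were also highest for the 7 genes. The r of STAR was 0.91 with HMGCS1, 0.87 with FDFT1, 0.78 with DHCR7, 0.77 with LSS, and 0.73 with SQLE and with FDPS. For these 6 the adjusted permutation p over the 21 pairs with steroidogenic genes lay under 0.05, and for INSIG1, with an r of 0.58, it was 0.0966. The rho values ran from 0.55 to 0.90, and r without the 2 farthest follicles from 0.48 to 0.96. With the mean of the 7 genes STAR had an r of 0.81 over the small healthy follicles. Over the large and atretic follicles, with group means removed, it was 0.80, and without large replicate 3 it was 0.55.

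CYP17A1, the enzyme of androgen synthesis, had an r of 0.45 with INSIG1 to 0.82 with HMGCS1, and 4 of the 7 genes passed by r and 6 by rho. Its median r over the 7 genes was 0.67. Without the 2 farthest follicles the median was 0.53, with a range of 0.41 to 0.94. CYP11A1, which cleaves the side chain of cholesterol and varied only from 9.8 to 10.5, had an r of 0.25 with LSS to 0.79 with INSIG1, with 3 of 7 passing by r and 1 by rho. With CYP11A1 the r of HMGCS1 went from 0.58 to 0.24 and that of SQLE from 0.75 to 0.43 without the 2 farthest follicles, so that these values rested on them, whereas that of DHCR7 went from 0.70 to 0.79 and that of FDPS from 0.65 to 0.69. INSIG1 had the lowest r of the 7 genes with STAR and CYP17A1 and the highest with CYP11A1.

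The genes whose log2 signal was most like the mean of the 7 over the small healthy follicles were sought among 7359 genes, as a description with no test. The 8 with the highest r were SCD, 0.98, NSDHL, BCAT2, ACAT2 and CYP51A1, each 0.97, MSMO1, 0.96, and ACLY and RNF128, each 0.95. NSDHL, CYP51A1 and MSMO1 are enzymes that strip the methyl groups from lanosterol, ACAT2 makes acetoacetyl-CoA, ACLY supplies cytosolic acetyl-CoA, BCAT2 is the mitochondrial transaminase of branched-chain amino acids and RNF128 is a ubiquitin ligase. An r of 0.9 or more was reached by 16 of the 7359 genes, or 0.217%, and the median r over all was -0.02. In the 9 large and atretic follicles, with group means removed, the same 8 genes had an r from 0.74 for RNF128 to 0.98 for ACLY, and without large replicate 3 from 0.80 to 0.97.

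Of the 10 other enzymes of the route, 8 had an r of at least 0.8 with that mean, the remaining 4 of these being MVD, 0.93, PMVK, 0.90, EBP, 0.88, and TM7SF2, 0.81. MVK, mevalonate kinase, had an r of 0.40 here and of 0.84 in the large and atretic follicles, or 0.74 without large replicate 3. GGPS1, which makes geranylgeranyl pyrophosphate for the branch that leaves the sterol route, had an r of 0.02. SREBF2 had an r of 0.87 and SREBF1 of -0.12. SCAP, with 0.75, had an r of 0.17 in the large and atretic follicles, and INSIG2, with 0.30, had -0.13. SCARB1, the receptor that takes up cholesterol from HDL, had an r of 0.84 and of 0.85 in the other 9 follicles.

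Some lists of cell markers also varied with these genes, in the same or the opposite direction, and others did not. The 7 immune markers had an r between -0.81, for PTPRC, and -0.47, for CD68, with the mean of the 7 genes over the small healthy follicles, and between -0.78 and -0.33 over the large and atretic ones. The mean of the 10 steroidogenic genes had an r of 0.78, that of the 6 smooth muscle markers -0.51, that of the 8 granulosa markers 0.44, and those of the 6 fibroblast, 6 endothelial and 7 cell cycle genes 0.21, 0.07 and -0.03. Over the large and atretic follicles the means of these lists had an r of 0.74 for the steroidogenic, -0.23 for the smooth muscle, 0.45 for the granulosa, -0.26 for the fibroblast, -0.55 for the endothelial and 0.42 for the cell cycle genes. Among technical measures over the small healthy follicles, the poly-A controls had an r of -0.66 (rho -0.45) and the array median of detected probe sets one of -0.46 (rho -0.52). The difference between 3′ and 5′ probes of GAPDH had an r of -0.42, that of actin one of -0.22 and the hybridization controls one of -0.33. The part of cell composition or of RNA handling in the shared variation was not tested.

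**Figure D5:**
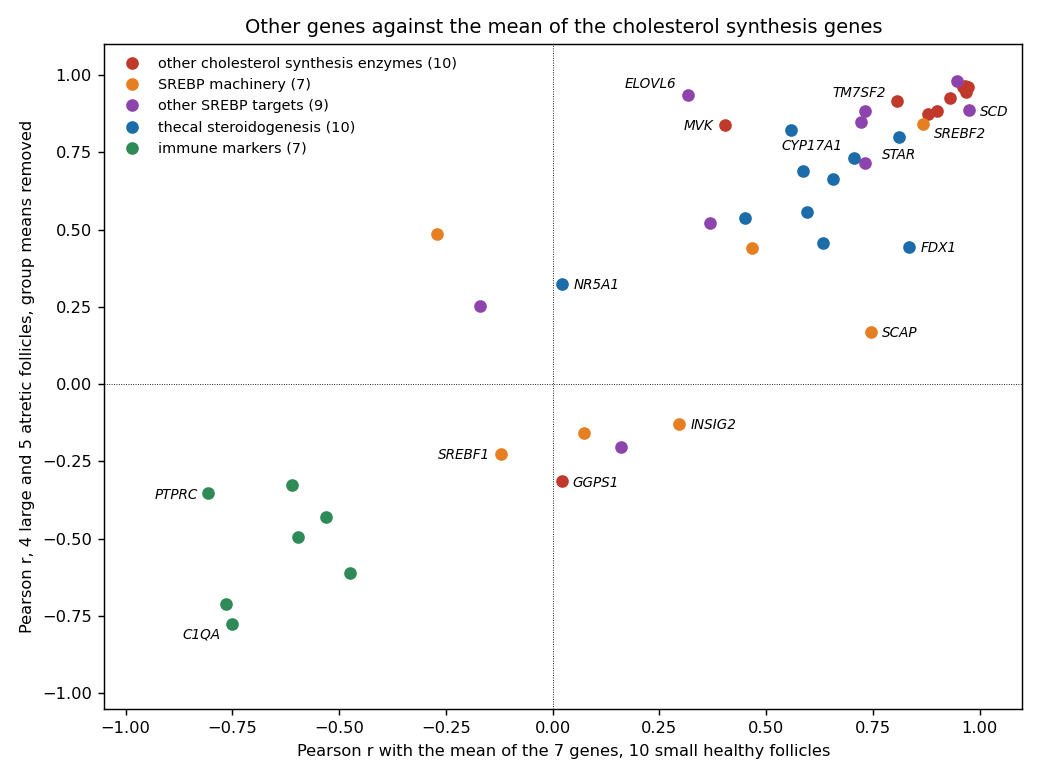
Pearson r with the mean of the 7 genes over the 10 small healthy follicles (x axis) and over the 4 large and 5 atretic follicles with group means removed (y axis); each dot is a gene of 5 lists, coloured by list. Of the 10 other cholesterol synthesis enzymes, 9 are in the upper right, and the 7 immune markers are in the lower left.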

How the data were processed

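Theca interna RNA was hybridised to single-colour Affymetrix bovine arrays. The values are the authors' RMA summaries, quantile normalised (Partek 6.5) and deposited on the log2 scale with a value for each probe set. Array medians were 3.8 to 3.9. No source used here states whether the atretic arrays were normalised together with the others. The sample records and the study's methods differ on RNA extraction and on the amount of RNA labelled, which is smaller in the methods. The kits and amounts quoted are those of the records. Genes were named from the platform annotation, in which 86 probe sets carried several symbols and 10724 none, and all 7 genes had the same symbol in the RefSeq gene table. No sequences or coordinates were used.

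Probe sets were tested where 50% or more of the arrays of a follicle type had a log2 signal over 3, leaving out 111 controls. The test was limma (version 3.58.1, R 4.3.3), and p-values were adjusted by Benjamini-Hochberg over all tested probe sets. Single probe sets were also tested by exact permutation. Correlations used 100000 permutations. Other genes were named where they passed a test in 1 of 13 lists, with regulators and steroidogenic genes always named, and the 8 genes most like the members' mean. The members and lists were chosen with earlier results of these data known. Scripts were tested on simulated data. Alternatives covered filters, normalisation, variance moderation, array weights, groups in the fit, a replicate block, and each array left out.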

Additional observations from a re-analysis of the deposited data

Results flagged for a closer look

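In 4 of 48 groups of values (12 probe sets in 4 follicle groups), the extreme follicle stood farther from its nearest neighbour, relative to the range of the group, than Dixon's 95% limit, which chance alone exceeds in about 1 of 20 groups. In 3 of them it was large replicate 3: HMGCS1 had a log2 signal of 10.5 there, with the next large follicle at 7.4, LSS had 5.7 with the next at 4.5, and the dimmer probe set of LSS had 4.3 with the next at 3.2. The last was the dimmest probe set of FDFT1, at 1.3 in large replicate 1 and 1.2 in the other large follicles, which is below detection and a step of 1 decimal.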

How the results depend on the processing

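The number of the 7 genes passing on their brightest probe set in atretic against small healthy follicles was 2. It was 1 without a filter, without moderation of the variance, with the replicate block and without the 2 arrays with the highest CYP19A1. With all 4 groups in 1 fit and against rounded follicles only it was 0, and with 1 array left out 0 to 3. It was 0 in the other comparisons under every alternative. Second probe sets were not counted by themselves under the alternatives. The median difference of the 7 genes between large and small healthy follicles ran from -0.73 to 0.073. The direction of the median over the 7 genes held for rounded against columnar (-0.85 to -0.30) and atretic against small healthy follicles (-1.26 to -0.60), and the median r of the pairs lay between 0.84 and 0.90.

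Signs turned only for differences that had passed no test. For large minus small healthy follicles, FDFT1 was -0.03 with arrays centred on their medians, -0.0091 with quantile normalisation again, -0.063 with the replicate block and -0.05 against columnar follicles only; INSIG1 was -0.020 with array weights and -0.23 against columnar follicles only; HMGCS1 was 0.011 without the 2 arrays with the highest CYP19A1; FDPS was 0.05 against rounded follicles only. For rounded minus columnar follicles, LSS was 0.028 with array weights, and LSS and FDFT1 were 0.005 without the 2 arrays with the highest CYP19A1. For atretic minus small healthy follicles, FDFT1 was -0.06 with centred arrays, -0.023 with quantile normalisation, -0.050 with array weights, -0.085 with the mean of its probe sets and -0.04 against columnar follicles only. The cause was not tested. Of 557 values of single genes under the alternatives, 498 kept direction and side of the threshold.

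With 1 array left out, the log2 difference between large and small healthy follicles ranged from -1.16 to 0.073 for HMGCS1, -1.22 to 0.043 for SQLE, -0.20 to 0.27 for LSS, -0.27 to 0.16 for FDFT1, -0.69 to 0.04 for FDPS and -0.73 to 0.47 for INSIG1, where large replicate 3 gave the lowest values. Between rounded and columnar follicles LSS ranged from -0.28 to 0.055 and FDFT1 from -0.28 to 0.005, and between atretic and small healthy follicles LSS from -0.28 to 0.045 and FDFT1 from -0.09 to 0.11.

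Replicate numbers are shared by the groups, and 10 of 27 same-numbered pairs had deviations correlated over 0.1 (-0.35 to 0.57). No pairs with different numbers were set beside them, so these values cannot tell whether the numbers pair follicles. Of all probe sets, 18 to 1078 passed between large and small healthy and 244 to 6028 between atretic and small healthy follicles across the alternatives. Signals near 3 carry little above background, and values rounded to 1 decimal limit small differences.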

Other observations

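At the other end of the 7359 genes, the 8 with the lowest r with the mean of the 7 cholesterol synthesis genes over the 10 small healthy follicles were ADCY7 with -0.98, FERMT3 with -0.93, LCP2 with -0.92, UIMC1 and ITGB2 with -0.91 each, CD48 and HDAC10 with -0.90 each, and FES with -0.89. They were looked up after the highest values had been seen and are a description with no test. Over the 9 large and atretic follicles, with group means removed, r was -0.46 for ADCY7, -0.53 for FERMT3, -0.48 for LCP2, -0.22 for UIMC1, -0.59 for ITGB2, -0.52 for CD48, -0.76 for HDAC10 and -0.57 for FES.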
